A study of Homo sapiens with 6 samples.

Results

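The 7 genes described here encode parts of the contractile actin cytoskeleton. They were ACTA2, TAGLN, MYL9, TPM1, CALD1, MYH9 and VCL. A loop was assigned to a gene when either of its anchors overlapped the gene with 5 kb added on each side (hg19), and the paired-end tags (PETs) of those loops were summed. Of 736589 loops listed over 6 libraries, 1469 met this rule, and 19 of 30001 merged anchors lay in the gene windows. Loops were listed at 5 of the 7 genes. ACTA2 and CALD1 had none in any library.

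Actin filaments and bundles of non-muscle myosin generate tension, and focal adhesions pass that tension to the matrix. In mesenchymal and smooth muscle cells many genes of this system are transcribed together under serum response factor, which binds CArG boxes, and in many cell types under YAP and TEAD factors. H3K27ac is a histone mark of active promoters and enhancers, so an H3K27ac contact joins regions of which at least one carries that mark.

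HiChIP, which captures DNA contacts at a chosen chromatin protein or mark, was profiled in G401, an established human rhabdoid tumour line. The line was a stable derivative in which doxycycline switches on SMARCB1, which belongs to the core of the SWI/SNF chromatin remodeller. The groups were ARID1A (a SWI/SNF subunit) at day 3, labelled SMARCB1 +/+ after doxycycline at 1 μg/ml for 3 days; H3K27ac at day 3, with the same label and treatment; and H3K27ac at day 0, labelled SMARCB1 -/-. Each group had 2 libraries. The effects of SMARCB1, doxycycline and time cannot be told apart, because all of them differ between day 0 and day 3. The labels do not state that replicates grew as separate cultures, so the p-values reflect the spread of these libraries, perhaps a technical one.

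Listed PETs per library numbered 435210 and 467487 for ARID1A, 929128 and 982141 for H3K27ac at day 3, and 301703 and 253502 for H3K27ac at day 0. Levels are given as CPM, the PETs of a gene scaled to 1000000 listed PETs in each library. Anchors appear to have been called per group, since replicates shared 98.4% to 99.7% of theirs, and where a group has no anchor its contacts were not measured. Wider anchors collect more PETs, so the called width is given beside the sums.

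Promoter sequences show which of these letters the genes carry around their starts. RefSeq promoters (GRCh38.p14, plus strand of the gene, 300 bases) were held for 5 of the 7 genes, with 9 promoters in all; TAGLN and MYL9 had no entry. The motifs searched on both strands were GGAATG, the core bound by TEAD factors, TGANTCA, bound by AP-1, and the CArG box in its strict form, with only A or T between its outer CC and GG. The 4 promoters below are those of the 3 genes whose loops dominate the results and 1 of ACTA2, which had no loop. Capitals mark GGAATG.
TPM1, chr15:63048239-63048538, plus strand: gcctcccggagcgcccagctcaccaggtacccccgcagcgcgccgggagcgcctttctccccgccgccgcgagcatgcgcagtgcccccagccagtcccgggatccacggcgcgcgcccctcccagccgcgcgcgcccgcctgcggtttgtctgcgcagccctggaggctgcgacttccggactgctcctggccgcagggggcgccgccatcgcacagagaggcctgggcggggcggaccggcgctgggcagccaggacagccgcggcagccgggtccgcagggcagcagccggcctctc
VCL, chr10:73997866-73998165, plus strand: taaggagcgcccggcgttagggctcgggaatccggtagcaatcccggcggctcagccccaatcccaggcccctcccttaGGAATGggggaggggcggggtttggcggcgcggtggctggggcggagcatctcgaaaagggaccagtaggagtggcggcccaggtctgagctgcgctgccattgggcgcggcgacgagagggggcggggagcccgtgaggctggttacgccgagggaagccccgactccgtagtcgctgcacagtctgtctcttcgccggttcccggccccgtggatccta
MYH9, chr22:36387918-36388217, minus strand: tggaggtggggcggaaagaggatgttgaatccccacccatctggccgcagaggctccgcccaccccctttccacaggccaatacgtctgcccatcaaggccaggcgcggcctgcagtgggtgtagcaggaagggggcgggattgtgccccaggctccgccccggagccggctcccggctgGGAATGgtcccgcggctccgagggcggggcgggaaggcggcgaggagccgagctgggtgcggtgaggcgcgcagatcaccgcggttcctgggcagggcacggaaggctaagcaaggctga
ACTA2, chr10:88952724-88953023, minus strand: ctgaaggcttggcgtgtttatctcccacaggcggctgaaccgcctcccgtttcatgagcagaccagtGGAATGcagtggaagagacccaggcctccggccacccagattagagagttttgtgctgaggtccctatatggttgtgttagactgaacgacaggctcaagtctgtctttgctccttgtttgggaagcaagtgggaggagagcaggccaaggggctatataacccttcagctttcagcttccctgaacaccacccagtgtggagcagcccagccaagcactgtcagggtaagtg
GGAATG was in 5 of the 9 promoters, against 14.0% of all 35116 promoters in the table. TGANTCA was in 1 of the 9, a CALD1 promoter, against 7.71% of all. No strict CArG box was found in the 9, against 1.29% of all. With 1 G or C allowed in the middle, 2 of the 9 held one, against 6.94% of all; the ACTA2 promoter printed above held 2 such elements. A match describes these letters only, and 9 promoters of 5 genes are few. The promoters of TPM1, VCL and MYH9 were GC-rich, at 78.3%, 69.3% and 70.3%, and the ACTA2 promoter printed had 55.0%.

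ACTA2 encodes smooth muscle alpha-actin, and CALD1 encodes caldesmon, which binds actin and tropomyosin and restrains myosin. No anchor overlapped either window (ACTA2, chr10:90694831-90751154; CALD1, chr7:134464164-134655480) in any group, so neither was measured and no level or fold is given. The anchors nearest ACTA2 lay 38.9 kb away in the ARID1A libraries, 631 kb away in H3K27ac at day 3 and 651 kb away at day 0. The ARID1A anchor, on the 5′ side, where the next gene, FAS, overlaps ACTA2 in the RefSeq order, held 1 and 2 PETs. At CALD1 the nearest anchor was 35.5 kb away for ARID1A with 0 and 1 PETs, 14.8 kb away for H3K27ac at day 3 where it held 7 and 4 PETs, and 197 kb away at day 0, holding 1 PET in each library.

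The 5 measured genes spanned a wide range of levels. In H3K27ac at day 3, TPM1 had 2294 ± 10.7 CPM (SD, n = 2 in each group, here and below), VCL 1164 ± 0.53, MYH9 737 ± 8.95, MYL9 82.6 ± 4.16 and TAGLN 57.5 ± 0.70. Levels of this kind follow the called length as well as the contacts: the called anchors covered 48.5 kb at TPM1, 69.0 kb at VCL, 45.9 kb at MYH9, 4.95 kb at MYL9 and 7.06 kb at TAGLN. Per called kb, TPM1 had 47.3 CPM in H3K27ac at day 3 while VCL had 16.9 ± 0.0077, MYL9 16.7 ± 0.84 and MYH9 16.1 ± 0.19 CPM per called kb. The MYL9 libraries overlapped those of VCL and MYH9, and VCL and MYH9 did not overlap. TAGLN was lowest, at 8.15 CPM per called kb.

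**Figure D1:**
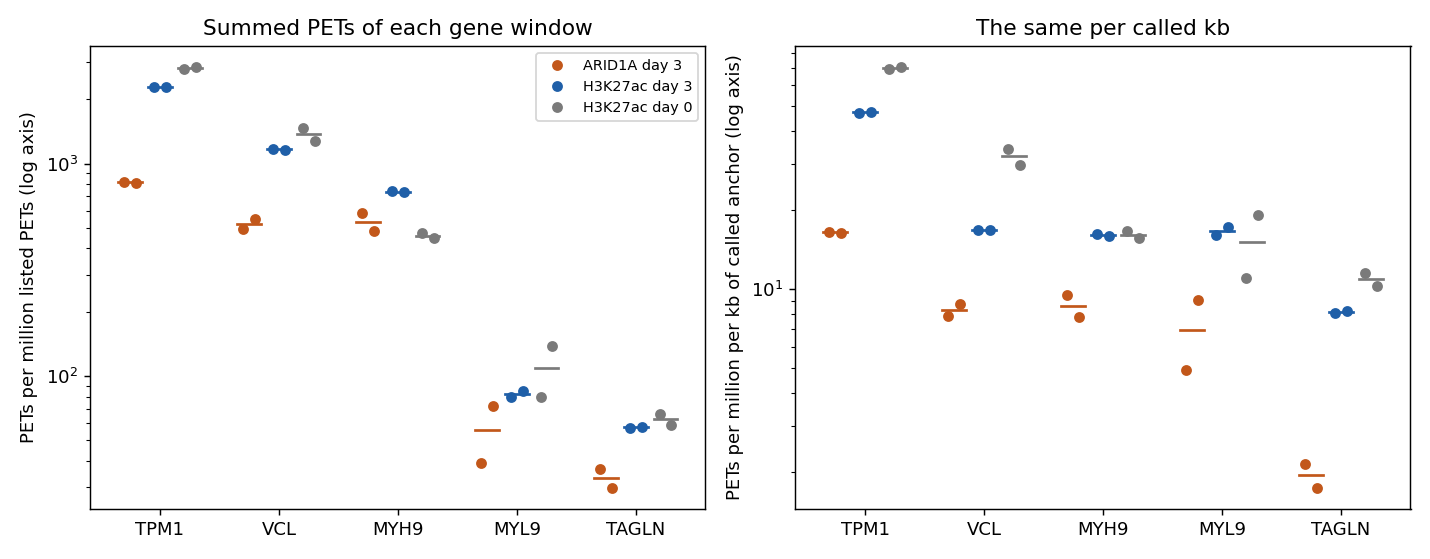
Levels of the 5 measured genes in each library; the left panel gives CPM and the right panel CPM per kb of called anchor, both on log axes, with points for the 2 libraries of a group and a line at their mean. TPM1 is the highest in every group. The ARID1A libraries lie below both H3K27ac groups at TPM1, VCL, MYL9 and TAGLN in the left panel and at all 5 genes in the right panel.

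Across the 6 libraries, which form 3 groups of 2, the log2 CPM of TPM1 was most like that of VCL (Pearson r 0.99), then that of TAGLN (0.97). MYH9 was unlike the other 4 (r between -0.26 and 0.15). These values describe 6 libraries only and share the library totals.

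**Figure D2:**
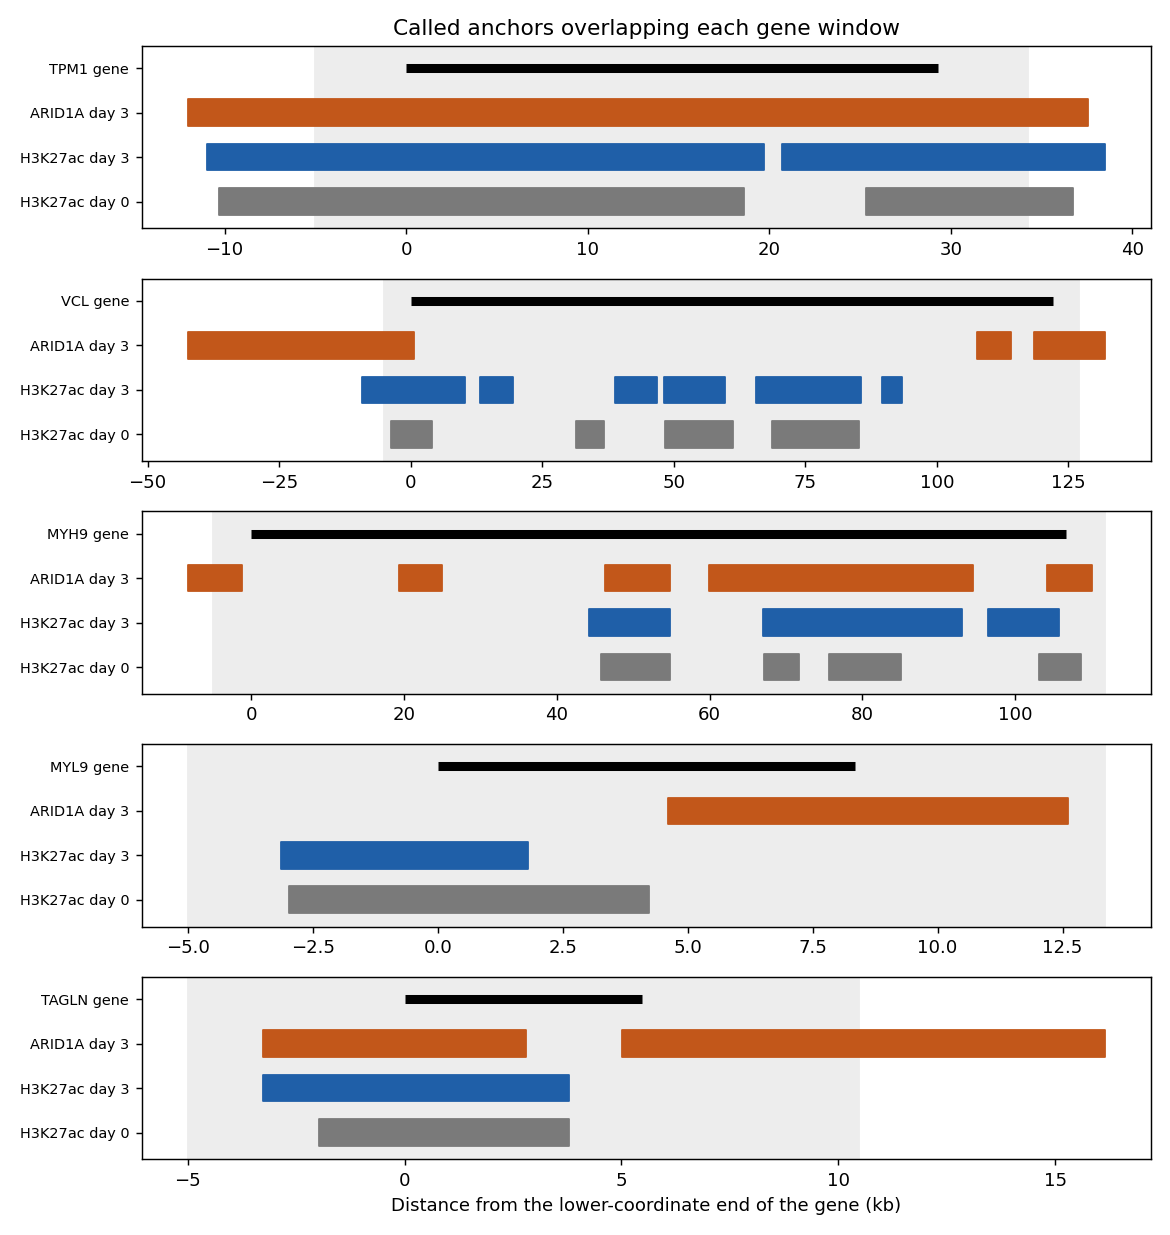
Called anchors (coloured bars) overlapping the window (grey shading) of each gene (black bar), by group, in kb from the gene's lower-coordinate end. At VCL the H3K27ac anchors lie along the gene body while ARID1A anchors lie at its 2 ends, and at MYL9 the ARID1A and H3K27ac anchors do not overlap.

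TPM1, tropomyosin 1, winds along actin filaments and governs access of myosin and other binding proteins. Its anchors covered nearly the whole gene: 1 anchor of 49.6 kb for ARID1A (chr15:63322809-63372419), and for H3K27ac an anchor over the 5′ end of 30.7 kb at day 3 (chr15:63323857-63354568) and 28.9 kb at day 0 (chr15:63324534-63353433), each with a second anchor at the 3′ end. The H3K27ac day 3 anchor over the 5′ end ranked 15 of 17421 by PETs in that group, the day 0 anchor 40 of 8663, and the ARID1A anchor 36 of 26762. TPM1 held 357 and 379 PETs in the ARID1A libraries, 2124 and 2260 in H3K27ac at day 3, and 842 and 721 at day 0.

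TPM1 contacts ran mostly to its 5′ side. Partners there took 71.1% and 71.8% of its PETs in ARID1A, 80.6% and 82.6% in H3K27ac at day 3 and 85.0% and 86.3% at day 0. TLN2, which encodes a talin that links integrins to actin, is the next coding gene on that side. The loop with most PETs in H3K27ac at day 3 joined the 5′ anchor to chr15:63154834-63207490, over 158 kb, which carried 448 and 473 PETs. The top loop at day 0 went to chr15:63164348-63199103 and had 193 and 161 PETs. In ARID1A the loop to chr15:63275251-63320648, over 49.7 kb, had most, with 100 and 88 PETs.

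VCL, vinculin, strengthens the link between talin and actin in focal adhesions. Its anchors differed between the groups in place. For H3K27ac there were 6 anchors at day 3 and 4 at day 0, reaching into the gene body (the largest away from the 5′ end, chr10:75823491-75843512 at day 3, held 280 and 285 PETs). For ARID1A there were 3: chr10:75715489-75758547, over the 5′ end and the region before it, and chr10:75865550-75871949 and chr10:75876394-75889746 at the 3′ end, where VCL overlaps AP3M1 in the RefSeq order. Only 1 of the 9 merged anchors of VCL was called in all 3 groups, and the H3K27ac anchors of the gene body had no ARID1A anchor, so their ARID1A contacts were not measured. VCL held 215 and 257 PETs in ARID1A, 1082 and 1143 in H3K27ac at day 3 and 443 and 324 at day 0. Partners on its 5′ side, where PLAU is the next coding gene, took 54.9% and 57.6% of PETs in ARID1A, 68.1% and 67.6% in H3K27ac at day 3 and 71.1% and 70.4% at day 0.

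MYH9 encodes the heavy chain of non-muscle myosin IIA, the motor of stress fibres. Its gene-body anchor was called at 26.0 kb in H3K27ac at day 3 (chr22:36744329-36770338), and at day 0 as 2 anchors of 4470 bp and 9410 bp. The 5′ end of the gene was covered by an anchor in ARID1A (chr22:36781492-36787344) and at day 0 (chr22:36780427-36785940). The nearest H3K27ac day 3 anchor ended 0.96 kb short of it. MYH9 held 254 and 225 PETs in ARID1A, 691 and 718 in H3K27ac at day 3 and 142 and 113 at day 0. Its partners also lay mainly on the 5′ side, where TXN2 is the next coding gene, with 70.9% and 70.7% of PETs in ARID1A, 65.8% and 64.8% in H3K27ac at day 3 and 56.3% and 45.1% at day 0.

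**Figure D3:**
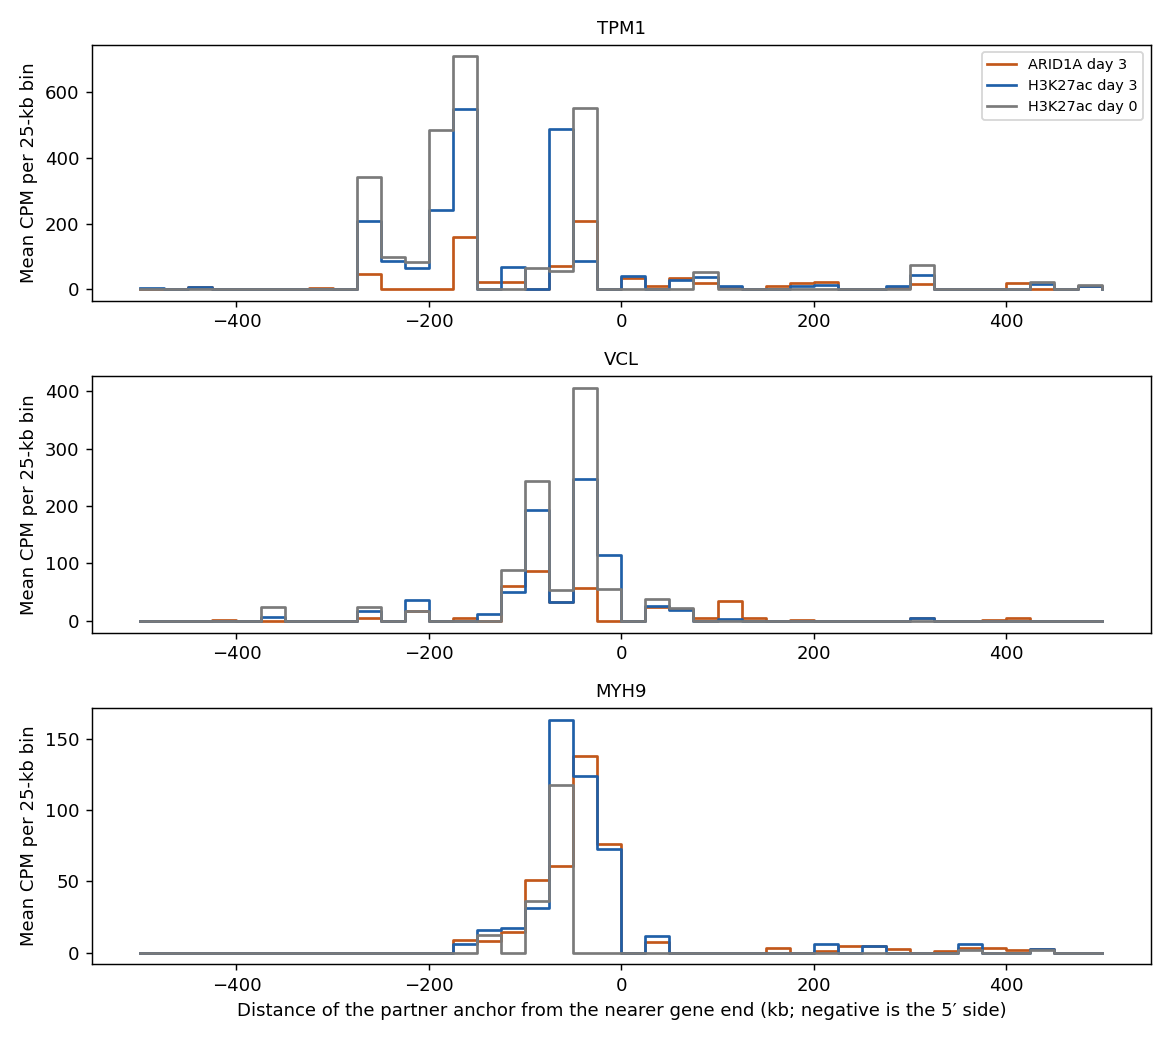
Mean CPM of partners by distance from the nearer gene end, in 25-kb bins, for TPM1, VCL and MYH9, with the 5′ side of each gene at negative distances. The highest bins lie within 300 kb on the 5′ side in all 3 groups.

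MYL9, a regulatory light chain of myosin II, and TAGLN, transgelin, an actin-binding protein of smooth muscle, had few PETs. MYL9 held 17 and 34 PETs in ARID1A, 74 and 84 in H3K27ac at day 3 and 24 and 35 at day 0. The H3K27ac anchors lay over the lower-coordinate part of MYL9 (chr20:35166751-35171701 at day 3) and the ARID1A anchor over the other end (chr20:35174499-35182498), without overlap. TAGLN held 16 and 14 PETs in ARID1A, 53 and 57 in H3K27ac at day 3 and 20 and 15 at day 0, and the gene overlaps its neighbour PCSK7 in the RefSeq order, so contacts there cannot be assigned to 1 of them.

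How these contacts stand after SMARCB1 returns was addressed by setting H3K27ac at day 3 against H3K27ac at day 0. Of the 5 measured genes, MYH9 was called higher, TPM1 and VCL lower, and MYL9 and TAGLN did not pass the test (edgeR's quasi-likelihood test, Benjamini-Hochberg adjustment over all windows and merged anchors, adjusted p under 0.05). Of all 6698 tested, 27.2% were called higher and 27.6% lower, so 1 higher and 2 lower of 5 is near the share of all. These were merged anchors called in both groups; with those called in either group added, where an uncalled anchor counts as 0, 65.0% of 15042 were called higher and 16.2% lower, and the 5 genes still gave 1 higher and 2 lower. The median log2 fold change was -0.21 over the 5 genes and 0.01 over all tested.

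MYH9 had 737 ± 8.95 CPM at day 3 and 458 ± 17.6 CPM at day 0. The libraries of the 2 groups did not overlap, and the log2 fold change was 0.72 ± 0.10 (SE, edgeR adjusted p 2.27e-09). The called width at MYH9 was 1.62 times that at day 0, and the level per called kb, 16.1 CPM at day 3 and 16.1 CPM at day 0, had a ratio of 0.995, so no difference was seen per called kb.

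TPM1 had 2294 ± 10.7 CPM at day 3 and 2817 ± 37.7 CPM at day 0, a log2 fold change of -0.26 ± 0.06 (edgeR adjusted p 8.25e-05). VCL had 1164 ± 0.53 CPM at day 3 and 1373 ± 135 CPM at day 0, a log2 fold change of -0.21 ± 0.07 (edgeR adjusted p 0.0131). Neither pair of groups overlapped. Called width at TPM1 was 1.20 times and at VCL 1.61 times that at day 0, and the levels per called kb were 47.3 CPM at day 3 and 69.9 CPM at day 0 for TPM1 (log2 -0.56), and 16.9 CPM at day 3 and 32.1 CPM at day 0 for VCL (log2 -0.92). Without either day 3 library both calls were lost, with adjusted p of 0.199 and 0.223 for TPM1 and 0.467 and 0.548 for VCL. VCL also lost its call without day 0 replicate 1 (adjusted p 0.497). Over loops between anchors called in both groups TPM1 had 0.07 (adjusted p 0.316), the other direction, and VCL -0.02 (adjusted p 0.856).

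MYL9 had 82.6 ± 4.16 CPM at day 3 and 109 ± 41.4 CPM at day 0, with overlapping libraries and a log2 fold change of -0.32 ± 0.23 (edgeR adjusted p 0.234). Without day 0 replicate 1 it passed the test at -0.68 (adjusted p 0.0441), and without day 0 replicate 2 it was 0.08. TAGLN had 57.5 ± 0.70 CPM at day 3 and 62.7 ± 5.03 CPM at day 0, a log2 fold change of -0.09 ± 0.28 (edgeR adjusted p 0.796). With a 25 kb flank, which takes in neighbouring anchors, TAGLN was called lower at -0.91 (edgeR adjusted p 6.09e-05).

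**Figure D4:**
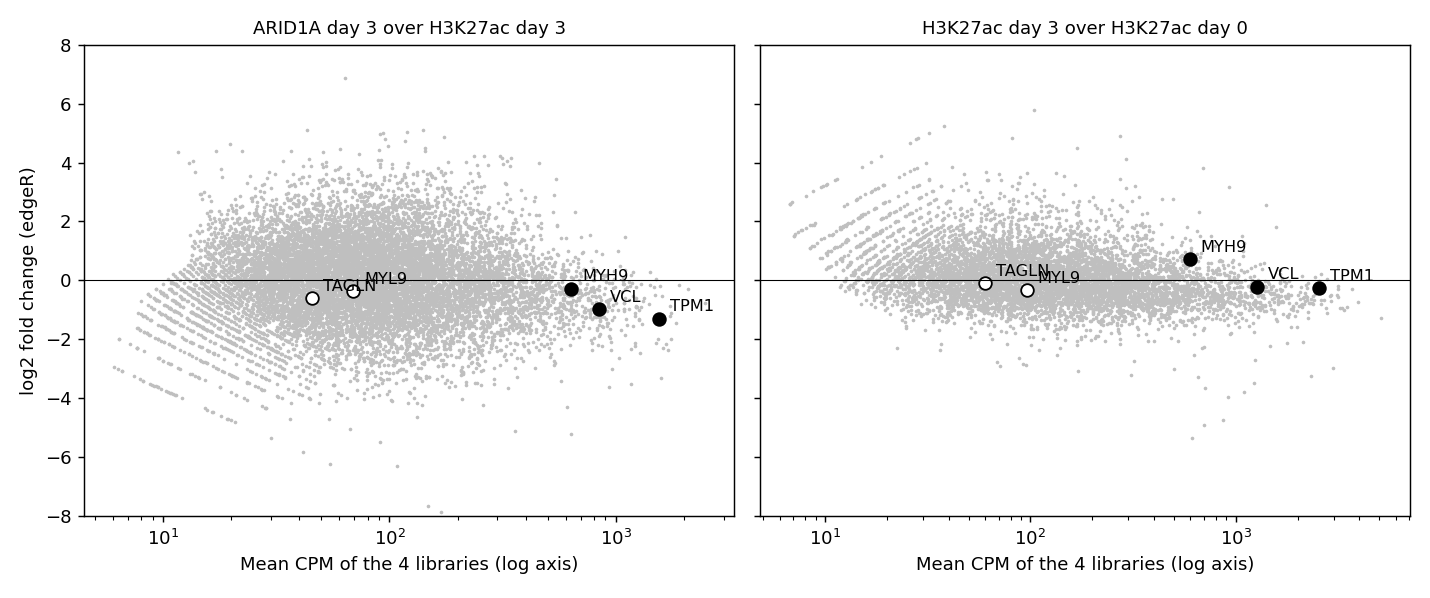
log2 fold change against mean CPM for the 5 genes (labelled; filled where called) and all other tested windows and merged anchors (grey), for ARID1A over H3K27ac at day 3 (left) and H3K27ac day 3 over day 0 (right). The 3 called genes sit among the points with the most PETs.

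Merged anchors within a gene did not all move alike. Of 9 tested in the gene windows, 2 were called higher and 4 lower, against 27.2% and 27.6% of all 6702. At MYH9 the gene-body anchor had 476 ± 4.29 CPM at day 3 and 279 ± 24.0 CPM at day 0 (0.81 ± 0.13, edgeR adjusted p 2.73e-08). The anchor chr22:36721582-36732164, further from its 5′ end, had 236 ± 31.5 CPM at day 3 and 146 ± 38.4 CPM at day 0 (0.74 ± 0.18, edgeR adjusted p 1.76e-04). The 5′-end anchor of MYH9 had 207 ± 15.6 CPM at day 3 and 190 ± 40.3 CPM at day 0, overlapping, and did not pass (adjusted p 0.480). At VCL the gene-body anchor chr10:75806068-75819064 had 185 ± 20.1 CPM at day 3 and 379 ± 17.1 CPM at day 0 (-0.99 ± 0.14, edgeR adjusted p 8.92e-10), and the next, chr10:75823491-75843512, 296 ± 7.90 CPM at day 3 and 463 ± 109 CPM at day 0 (-0.63 ± 0.12, edgeR adjusted p 5.70e-06). The VCL 5′-end merged anchor, which includes H3K27ac anchors before the gene, had 1194 ± 21.7 CPM at day 3 and 1444 ± 6.09 CPM at day 0 (-0.24, edgeR adjusted p 0.00340). These folds were not adjusted for called width. It was 26009 bp at day 3 and 13880 bp at day 0 for the MYH9 gene-body anchor, and 10504 and 8991 bp for chr22:36721582-36732164. For the 5′-end anchor of MYH9, whose day 3 stretch ended 0.96 kb short of the 5′ end, it was 9373 and 5513 bp. At VCL it was 47455 and 28707 bp for the 5′-end anchor. For the 2 gene-body anchors of VCL it was 11533 and 12956 bp, and 20021 and 16659 bp.

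Single loops were tested next. Of 62 loops tested at the 5 genes, 6 were higher and 4 lower, against 8.12% higher and 6.71% lower of all 16642. The loop of MYH9's gene body to chr22:36843749-36861353, over 98.0 kb, held 82 and 85 PETs at day 3, against 10 and 10 in the day 0 libraries (1.73 ± 0.29, edgeR adjusted p 9.66e-07); its 2 anchors were 1.87 and 1.53 times as wide at day 3. A TPM1 loop over 1017 kb held 12 and 5 PETs at day 3 and 0 in both day 0 libraries, at least 1.65-fold higher against a floor of 3 PETs over the day 0 group. Its far anchor was 2.22 times as wide at day 3 and its TPM1 anchor 1.20 times. A MYL9 loop over 80.5 kb held 12 and 18 PETs at day 3, against 2 and 0 in the day 0 libraries (2.50 ± 0.83, edgeR adjusted p 0.0272). Its far anchor was 4.53 times as wide at day 3 and its MYL9 anchor 0.687 times, so this fold also holds a change in called width. Lower at day 3 was a loop between 2 gene-body anchors of VCL, with 26 and 31 PETs at day 3, against 32 and 12 in the day 0 libraries (-0.94 ± 0.30, edgeR adjusted p 0.0202). Another ran from the VCL 5′-end merged anchor, which includes H3K27ac anchors before the gene, to chr10:75806068-75819064. It held 53 and 60 PETs at day 3, against 38 and 33 in the day 0 libraries (-0.65 ± 0.22, edgeR adjusted p 0.0335). Of its day 0 PETs, 19 and 16 came from the anchor over the 5′ end. A MYL9 loop over 64.6 kb held 2 and 4 PETs at day 3, against 3 and 7 in the day 0 libraries (-1.99 ± 0.70, edgeR adjusted p 0.0393). Among the loops with the highest mean CPM of each gene, that of MYH9, which joined its 2 gene-body anchors, held 81 and 71 PETs at day 3, against 9 and 24 in the day 0 libraries. It was called higher although the libraries overlapped in CPM (0.88 ± 0.27, edgeR adjusted p 0.0142). The top TPM1 loop, over 64.0 kb, held 520 and 578 PETs at day 3, against 212 and 162 in the day 0 libraries. In CPM it was lower, at 574 ± 20.4 at day 3 and 671 ± 45.0 at day 0, while the TMM-scaled log2 fold change was 0.23 ± 0.10 and did not pass (edgeR adjusted p 0.104). The top VCL loop, over 68.4 kb, held 213 and 231 PETs at day 3, against 97 and 82 in the day 0 libraries (edgeR adjusted p 0.971). Those of MYL9 and TAGLN held 11 and 14 and 11 and 16 PETs at day 3, against 9 and 11 and 8 and 8 in the day 0 libraries. DESeq2 called 1 of the 62 loops, which was higher, against 309 higher and 275 lower of all 16642. It gave no adjusted p to 10002 of all loops. After thinning to the smallest library 0 of 39 were called, against 135 higher and 78 lower of all 9213. Most of these calls thus did not hold under those settings, where calls over all loops also fell. With library totals in place of TMM, 2 were higher and 16 lower, and the median of all loops moved by -0.45 on the log2 scale.

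**Figure D5:**
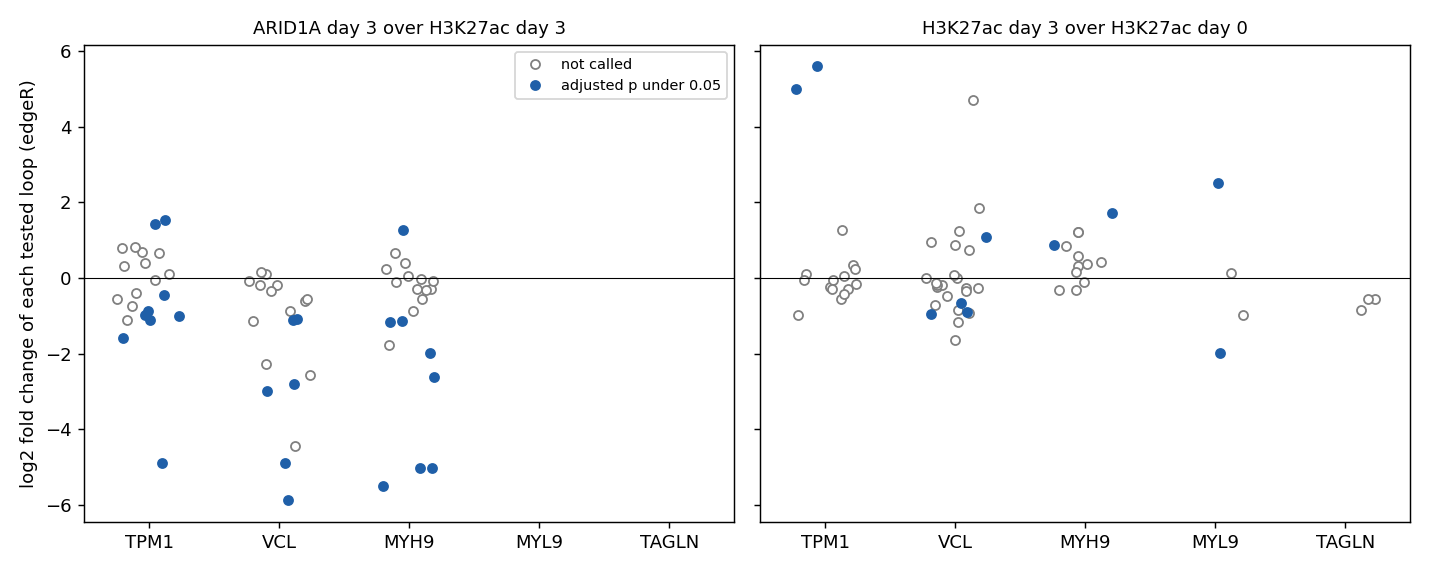
log2 fold change of every tested loop of the 5 genes, filled where called, for ARID1A over H3K27ac at day 3 (left) and H3K27ac day 3 over day 0 (right). No MYL9 or TAGLN loop was tested against ARID1A, since none that passed the filter on PETs joined anchors called for both targets.

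Contacts at ARID1A were then set against those at H3K27ac in cells of the same day. The antibody differs between these groups, so the target and the enrichment of its antibody cannot be told apart. Of the 5 genes 3 were called lower in ARID1A and none higher, against 36.2% lower and 35.2% higher of all 11627. Under library totals the median of all moved by -0.19 on the log2 scale. All 5 genes were then called lower, against 4877 lower and 3495 higher of all 11627.

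TPM1 had 816 ± 6.77 CPM in ARID1A and 2294 ± 10.7 CPM in H3K27ac, a log2 fold change of -1.30 ± 0.05 (edgeR adjusted p 1.42e-119). VCL had 522 ± 39.4 CPM in ARID1A and 1164 ± 0.53 CPM in H3K27ac (-0.96 ± 0.07, edgeR adjusted p 2.26e-40). MYH9 had 532 ± 72.4 CPM in ARID1A and 737 ± 8.95 CPM in H3K27ac (-0.28 ± 0.08, edgeR adjusted p 6.06e-04). At MYH9 the anchor chr22:36721582-36732164 had 104 ± 1.00 CPM in ARID1A and 236 ± 31.5 CPM in H3K27ac (-0.98 ± 0.16, edgeR adjusted p 1.45e-09). It was called over 8510 bp in ARID1A and 10504 bp in H3K27ac. The other MYH9 anchors fell less. The gene-body anchor had 332 ± 79.5 CPM in ARID1A and 476 ± 4.29 CPM in H3K27ac (-0.33 ± 0.10, edgeR adjusted p 0.00122), over 34528 and 26009 bp. The 5′-end anchor had -0.67 ± 0.16 (edgeR adjusted p 5.33e-05). The MYH9 window's call was lost with DESeq2 (adjusted p 0.0757) without ARID1A replicate 2 (-0.13, adjusted p 0.244), after thinning (adjusted p 0.202) and with loops inside the window left out (adjusted p 0.0703). TAGLN (-0.60 ± 0.29, edgeR adjusted p 0.0522) and MYL9 (-0.35 ± 0.23, edgeR adjusted p 0.156) did not pass; without either H3K27ac day 3 library TAGLN passed, at -0.76 and -0.73. It also passed with a 25 kb flank (-1.11), with loops inside the window left out (-1.04) and over loops between anchors called for both targets (-2.10). MYL9 was -0.87 without ARID1A replicate 2 and 0.018 without ARID1A replicate 1. Its ARID1A and H3K27ac anchors did not overlap, so no stretch of MYL9 was measured for both targets. The MYL9 folds here thus set different stretches against each other.

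Levels per kb of called anchor were not TMM-scaled, so their ratios are set beside unscaled CPM ratios. The log2 ratios per called kb were -1.53 at TPM1, -0.89 at MYH9, -1.26 at MYL9 and -2.07 at TAGLN. In CPM they were -1.49, -0.47, -0.56 and -0.79. The differences per called kb were thus larger at these 4 genes, though only slightly at TPM1. The called width in ARID1A was 1.02, 1.34, 1.62 and 2.44 times that in H3K27ac at those genes. At VCL it was 0.910 times, and the ratio of levels per called kb was 0.493 (log2 -1.02, against -1.16 in CPM). At MYL9 both ratios set different stretches against each other. At VCL, TAGLN and MYH9 both did so in part. The ARID1A anchors at the 3′ end of VCL had no H3K27ac anchor, and the H3K27ac anchors of its gene body had no ARID1A anchor. At TAGLN an ARID1A anchor of 11117 bp (chr11:117075062-117086179), with 13 and 14 PETs, had no H3K27ac anchor. The same held at MYH9 for chr22:36668979-36676146 and chr22:36696707-36702242.

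All 6 merged anchors tested at these genes were lower in ARID1A, against 36.2% of all 11628. The VCL 5′-end anchor had 334 ± 33.3 CPM in ARID1A and 1194 ± 21.7 CPM in H3K27ac (-1.64 ± 0.08, edgeR adjusted p 8.06e-92), and the shared TAGLN anchor 12.2 ± 2.19 CPM in ARID1A and 57.5 ± 0.70 CPM in H3K27ac (-2.03, edgeR adjusted p 1.89e-07). In H3K27ac the VCL region was split into several anchors, and loops between them counted. Of these, 1 held 136 and 133 PETs and 1 held 81 and 85. ARID1A had 1 anchor there, so such loops could not be listed. At TPM1 a loop between its 2 H3K27ac anchors held 151 and 128 PETs, and ARID1A again had 1 anchor. Sums of the 2 targets, also those of the windows, thus differ in which loops they could hold. Of 61 loops tested, 20 were lower and 3 higher, against 18.1% and 14.7% of all 28338. With library totals 30 were lower and 0 higher, and the median of all loops moved by -0.60 on the log2 scale. The TPM1 loop over 267 kb held 21 and 20 PETs in ARID1A and 184 and 216 in H3K27ac (-1.60 ± 0.22, edgeR adjusted p 1.22e-11), and that over 168 kb held 68 and 97 PETs in ARID1A and 506 and 543 in H3K27ac (-0.98 ± 0.14, edgeR adjusted p 3.72e-10). At VCL the loop over 68.4 kb held 32 and 32 PETs in ARID1A and 213 and 231 in H3K27ac (-1.11 ± 0.19, edgeR adjusted p 1.98e-07). In the other direction, 2 TPM1 loops to the 3′ side were higher in ARID1A: 8 and 12 PETs in ARID1A and 7 and 15 in H3K27ac over 229 kb (1.53 ± 0.48, edgeR adjusted p 0.00817), and 10 and 6 PETs in ARID1A and 9 and 10 in H3K27ac over 204 kb (1.42 ± 0.54, edgeR adjusted p 0.0324). Their far anchors were 2.58 and 3.62 times as wide in ARID1A.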

How the data were processed

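HiChIP loop lists of 6 libraries were used. The deposited counts are whole numbers of PETs per loop, raw and not normalised. A further deposited value from 0 to 1 has no header; its meaning is not given in the sources used here, and it served only as a threshold of 0.01 in an alternative. Per the submitters' processing notes, HiC-Pro and Bowtie2 were used with hg19, versions unstated; the loop caller is not given in the sources used here. Whether coordinates count from 0 or 1 is not stated, and they are printed as deposited.

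Anchors overlapping by 1 bp were merged (Python 3.11.15, pandas 2.3.3, numpy 2.4.6). A window or merged anchor entered a test with 10 or more PETs in 2 libraries, and a loop with 4 or more; merged anchors, and both ends of a loop, also had to be called in both groups compared, and gene windows had to hold PETs in both. PETs were tested over whole tables with edgeR 4.0.16 (R 4.3.3, TMM, quasi-likelihood, SE as the fold over the root of F), using the 4 libraries of the compared groups, after checks on simulated data. DESeq2 1.42.0 was an alternative, beside other scaling, filters, flanks, thinning to 253502 PETs, a replicate block and leaving out each library. Figures used matplotlib 3.10.9. Groups and replicate numbers came from titles. Same-numbered libraries did not deviate together (correlations 0.0118, -0.0139 and 0.0230 over 3925 anchors), so they were not paired. The members and lists were chosen with earlier results of these data known. Named were all 7 genes, the anchor and loop with the highest mean per gene, the 5′-end anchor, and up to 3 anchors and 3 loops per direction ranked by p among calls with groups that did not overlap. Gene order and strand came from RefSeq GRCh38.p14; no hg19 annotation was used here, so the other pathway genes were not analysed here.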

Additional observations from a re-analysis of the deposited data

How the results depend on the processing

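Calls at the gene windows, H3K27ac day 3 against day 0, numbered 3, and 1 over loops between anchors called in both groups; leaving out a library gave 1 to 3. For ARID1A against H3K27ac at day 3 they numbered 3, and 5 with library totals; leaving out a library gave 3 to 5. The counts of called merged anchors stayed within 1.5 times the main count in every alternative run. Loop calls were the least stable. For H3K27ac day 3 against day 0 the 10 of 62 became 18 with library totals, 1 with DESeq2, 2 with the newer quasi-likelihood method and 1 with the replicate block. After thinning to the smallest library 0 of 39 were called. Fewer were also called when a library was left out. For ARID1A against H3K27ac the 23 became 7 with DESeq2, 11 with the newer quasi-likelihood method, 8 with no low-count filter, 7 with 30 or more PETs, 14 with the replicate block and 3 after thinning; leaving out a library gave 4 to 12. Over all loops, library totals gave 684 higher and 2919 lower in place of 1352 and 1116 for H3K27ac day 3 against day 0, and 2657 higher and 10022 lower in place of 4161 and 5140 for ARID1A. With DESeq2 all loops gave 309 higher and 275 lower for H3K27ac day 3 against day 0, and 2504 and 1755 for ARID1A. After thinning they gave 135 higher and 78 lower of 9213, and for ARID1A 1247 and 996 of 10598. The newer quasi-likelihood method gave 992 higher and 853 lower of all loops, and for ARID1A 3456 and 3112. With the replicate block these were 815 and 739, and for ARID1A 3627 and 3678. For ARID1A, 30 or more PETs gave 1057 higher and 1032 lower of 3650, and no low-count filter gave 786 and 2129 of 128668.

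Some log2 fold changes of gene windows changed sign. For ARID1A against H3K27ac, MYH9 was 0.0094 with a 25 kb flank, and MYL9 ranged from -0.87 to 0.018 when a library was left out. For H3K27ac day 3 against day 0, MYH9 was -0.0061 per kb of called anchor, MYL9 was 0.13 with a 25 kb flank and -0.68 to 0.077 when a library was left out, TAGLN was 0.045 after thinning and -0.18 to 0.025 when a library was left out, and TPM1 was 0.073 over loops between anchors called in both groups. VCL lost its day 3 call with DESeq2 (adjusted p 0.125), after thinning (0.591) and with a 25 kb flank (0.235), over loops between anchors called in both groups (-0.021, adjusted p 0.856) and at a deposited value of 0.01 or less (0.907). TAGLN gained a day 3 call with a 25 kb flank (-0.91). The cause of these changes was not tested. The day 0 libraries had the fewest PETs, which limits what can be detected at MYL9 and TAGLN.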
